A study of Mus musculus with 6 samples.

Results

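Apol7c and 8 genes that mark dendritic cells were followed in RNA-seq libraries of CD4+ T cells taken from the spleens of 6 C57BL/6 mice. Dendritic cells take up antigen and present it to T cells. In the spleen they comprise conventional type 1 cells, which cross-present antigen to CD8 T cells and need the factors Batf3 and Irf8, conventional type 2 cells, which mainly present to CD4 T cells, and plasmacytoid cells, the main producers of type I interferon. Conventional and plasmacytoid cells both develop in response to the growth factor receptor Flt3. Apol7c belongs to the apolipoprotein L family, and its protein has been described in dendritic cells as disrupting the membrane of phagosomes, which lets engulfed antigen reach the cytosol for cross-presentation.

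The 9 genes, of 39171 in the files, were Apol7c, Itgax, Flt3, Zbtb46, Xcr1, Clec9a, Siglech, Cd209a and Batf3. They were chosen by name with earlier results of these data known, and Apol7c was selected on its value in the authors' deposited comparison, where it has p = 5e-05 and q = 0.0216. Its difference between the groups is therefore given as a description and supports nothing further. The samples were premenopausal mice. Those of the AngII group (3 mice) received angiotensin II, the vasoconstrictor peptide of the renin-angiotensin system, from an osmotic minipump at 800 ng/kg/min for 14 days from 10 weeks of age, and those of the Control group (3 mice) were untreated and of the same age. CD4+ T cells were isolated from spleen suspensions with a magnetic kit, which enriches them but can leave other cells behind, and there were as many libraries as mice. The labels do not say that controls carried a pump.

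Levels are in FPKM (fragments per kilobase of transcript, scaled to the depth of the library), which is a level per length and can be set side by side between genes. The steps between the lowest values in the files put the depth at about 31000000 to 34200000 fragments per library, with the deepest library (Control replicate 3) at 1.12 times the shallowest (Control replicate 1). The dendritic cell genes were low beside the T cell genes: Cd4 had a mean of 228.6 ± 25.5 FPKM (Control) and 228.1 ± 12.5 FPKM (AngII; SD, n = 3), Cd3e of 505.2 ± 35.6 and 479.3 ± 39.7, and the 8 T cell markers summed to between 1903 and 2281 FPKM per library, against 15.1 to 33.4 for the 9 genes together. In a bulk sample, fewer cells of a type and less of a transcript per cell cannot be told apart.

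The promoters of Apol7c and of 2 relatives, Apol7e and Apol7b, are shown because their levels are compared with that of Apol7c below and their windows differ in 2 of the motifs searched. Each is the stretch of 250 bases before the RefSeq start on GRCm38.p6, written in the direction of the gene. Capitals mark the paired core to which interferon regulatory factors can bind (GAAA, any 2 bases, GAAA), which in these windows lies on the opposite strand and so reads TTTC, 2 bases, TTTC.
Apol7c: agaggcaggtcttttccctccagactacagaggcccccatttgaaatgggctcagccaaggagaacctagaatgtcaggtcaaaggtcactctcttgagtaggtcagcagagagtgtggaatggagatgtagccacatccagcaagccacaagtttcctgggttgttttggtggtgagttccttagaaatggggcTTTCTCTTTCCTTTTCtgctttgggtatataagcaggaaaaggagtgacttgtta
Apol7e: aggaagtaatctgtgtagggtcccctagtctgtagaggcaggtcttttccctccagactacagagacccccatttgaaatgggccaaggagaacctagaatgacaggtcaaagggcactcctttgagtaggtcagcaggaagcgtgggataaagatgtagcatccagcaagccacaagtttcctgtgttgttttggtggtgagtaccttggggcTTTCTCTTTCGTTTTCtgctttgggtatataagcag
Apol7b: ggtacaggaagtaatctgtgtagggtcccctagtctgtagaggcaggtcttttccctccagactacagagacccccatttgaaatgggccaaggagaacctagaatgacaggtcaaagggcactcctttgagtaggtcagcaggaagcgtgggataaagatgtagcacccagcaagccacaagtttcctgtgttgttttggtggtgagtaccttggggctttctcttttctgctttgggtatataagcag
The windows lie at chr15:77533316-77533565 on the minus strand (Apol7c), chr15:77698639-77698888 on the plus strand (Apol7e) and chr15:77447461-77447710 on the minus strand (Apol7b). Apol7c and Apol7e each hold 2 overlapping matches, which begin 55 and 49 bases before the start of Apol7c and 36 and 30 bases before that of Apol7e, and the Apol7b window holds 0. Of 32851 promoter windows of this length, 2.98% hold this motif on either strand. Among the 9 genes, all of which had a window, it occurs in Apol7c alone. In the APOL family it also occurs in the windows of Apol7e, Apol9a, Apol9b, Apol10a, Apol11a and Apol11b, so it is not particular to Apol7c there. Apol11a was listed at 0 FPKM in all 6 libraries. Of 3 further motifs searched on both strands, AGGAAGT (an ETS core that PU.1 can bind; 7.69% of windows) and a joint ETS and interferon regulatory factor core (GGAA, any 2 bases, GAAA, which can overlap the paired core; 2.30%) occur in none of the 9 (AGGAAGT does occur in the windows of Apol7e and Apol7b), and TGANTCA (AP-1; 6.75%) occurs in those of Itgax and Zbtb46. The Zbtb46 window (chr2:181424389-181424638, minus strand) lies within the GENCODE span of that gene (181387762 to 181459426), not before its outer end. The Batf3 window (chr1:191098164-191098413, plus strand) likewise lies within its span (191097847 to 191108945). The Apol7b window lies partly within its span, which ends at 77447492, and those of Apol7c, Itgax and Siglech reach a few bases at most into theirs. A match describes letters in the window and does not show that a factor binds there.

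Apol7c (ENSMUSG00000044309, chromosome 15, 77524852 to 77533316, minus strand) was the most abundant of the 9 genes, with a mean of 5.54 FPKM over the 6 libraries. Values are given in the order of replicates 1, 2 and 3 throughout. In Control its level was 4.97, 6.03 and 10.1 FPKM, and in AngII 4.53, 3.65 and 3.93 FPKM. Every AngII library was below every Control library, with Control replicate 3 far above the other two, and the gap between the groups (4.53 against 4.97) was small beside the spread of the Control libraries. The group means were 7.04 ± 2.73 and 4.04 ± 0.451 FPKM (SD, n = 3), a difference of -0.63 in log2(FPKM + 1) (SE 0.236, 95% interval -1.20 to -0.05). Without Control replicate 3 the difference was -0.37. Leaving out the highest Control library cannot make the groups overlap, so their separation there adds nothing. Of 11842 genes tested, 3.48% had groups that did not overlap with AngII lower and 2.36% with AngII higher. These libraries held an estimated 249 to 714 fragments of Apol7c each.

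**Figure D1:**
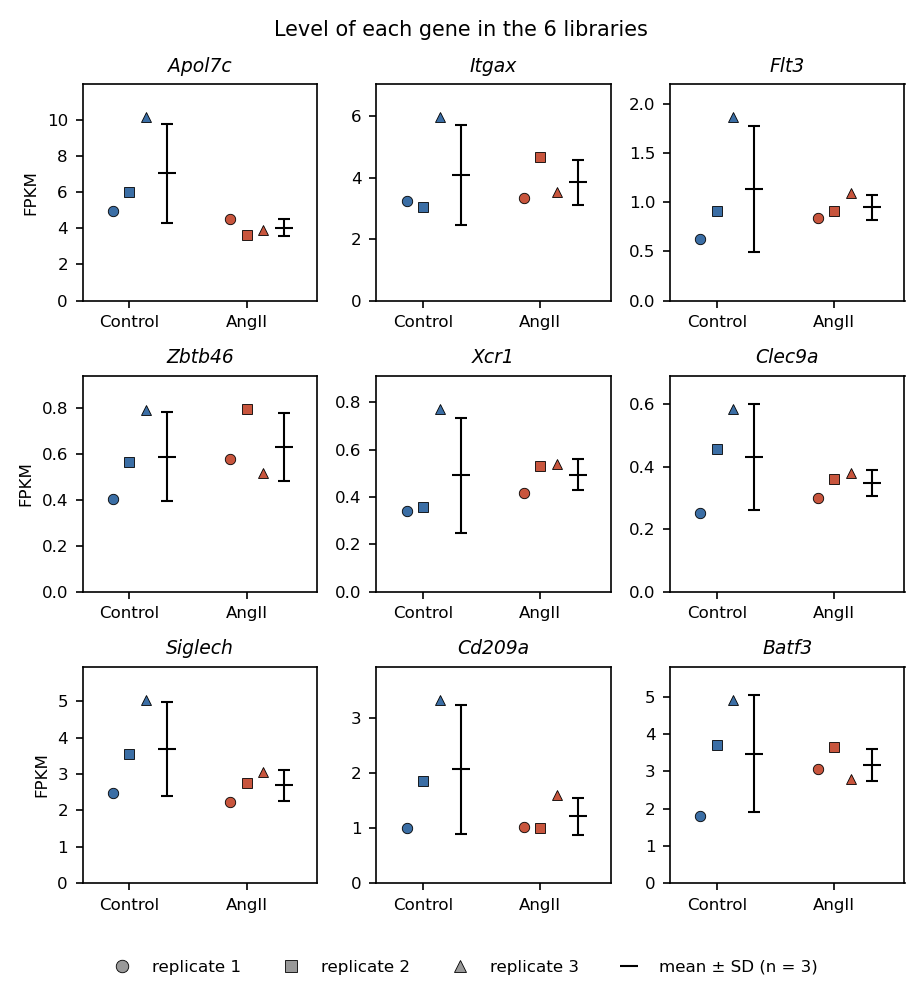
FPKM (vertical axes, linear from 0) of each of the 9 genes in the Control and AngII libraries. Symbols stand for replicates and the bar for the mean ± SD (n = 3). Apol7c alone shows groups that do not overlap (4.97 to 10.1 against 3.65 to 4.53 FPKM), and Control replicate 3 is the highest library for 8 of the 9 genes. That library is the highest for 1480 of all 11842 genes tested.

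None of the other 8 genes had groups apart. Of the 9, 6 reached a mean level of 1 FPKM (Apol7c, Itgax, Flt3, Siglech, Cd209a and Batf3) and were tested. Of these 0 passed limma (adjusted p = 0.9999 for each), where 0.0338% of all genes tested passed, and 1 of the 6, Apol7c, had an unadjusted p under 0.05, as 208 of 11842 genes did. The count among the 6 was 0 when Control replicate 2 or any single AngII library was left out, and 3 when Control replicate 1 was left out, with Siglech and Cd209a added. Passing the filter on low values rests on the level over all libraries, and the 3 others (Zbtb46, Xcr1 and Clec9a) were not tested. In the authors' deposited table, where 0.251% of the genes tested are significant, Apol7c is the only one of the 9.

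The genes shared by dendritic cell types came next. Itgax, which encodes the integrin CD11c and is also made by macrophages and NK cells, was at 3.23, 3.05 and 5.95 FPKM in Control and 3.32, 4.68 and 3.54 FPKM in AngII. Flt3, the receptor whose ligand drives dendritic cell development, was at 0.631, 0.914 and 1.86 FPKM in Control and 0.845, 0.914 and 1.09 FPKM in AngII. Zbtb46, a transcription factor of conventional dendritic cells, was at 0.404, 0.567 and 0.791 FPKM in Control and 0.580, 0.797 and 0.517 FPKM in AngII. For all 3 the AngII libraries lay inside the range of the Control libraries, except that AngII replicate 2 reached just above it for Zbtb46. The limma differences were -0.03 for Itgax (SE 0.237, 95% interval -0.61 to 0.55) and -0.09 for Flt3 (SE 0.234, -0.66 to 0.48), and Zbtb46 differed by 0.04 in log2(FPKM + 1). These intervals leave room for changes in either direction, and the sign of the Itgax difference turned when Control replicate 3 (0.217), AngII replicate 1 (0.046) or AngII replicate 3 (0.01) was left out.

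The surface receptors Xcr1 and Clec9a of the conventional type 1 lineage were the lowest of the 9 genes. Xcr1, the receptor for the chemokine XCL1, was at 0.343, 0.359 and 0.773 FPKM in Control and 0.417, 0.530 and 0.537 FPKM in AngII. Clec9a, a lectin receptor that binds actin exposed by dead cells, was at 0.251, 0.458 and 0.586 FPKM in Control and 0.302, 0.362 and 0.381 FPKM in AngII. All AngII libraries lay inside the Control range for both genes, and the differences in log2(FPKM + 1) were 0.01 and -0.08. An estimated 26 to 66 fragments per library stood behind Clec9a and 47 to 118 behind Xcr1, so a difference below the counting error of such numbers was not detectable. In the authors' deposited table Clec9a shares a row with its neighbour Clec1b, which platelets express, so the p of 0.196 there does not belong to Clec9a alone.

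Batf3, the factor required for type 1 cells and also present in activated T cells, was at 1.80, 3.70 and 4.92 FPKM in Control and 3.06, 3.64 and 2.80 FPKM in AngII. The Control libraries spanned 2.74-fold and enclosed all AngII libraries. Its limma difference was -0.04 (SE 0.280, 95% interval -0.72 to 0.64), the sign of which turned when Control replicate 2 (0.03) or 3 (0.196) or else AngII replicate 3 (0.025) was left out.

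Cd209a, a lectin of type 2 and monocyte-derived dendritic cells, varied most, by 3.33-fold between the lowest and the highest library. It was at 1.01, 1.86 and 3.34 FPKM in Control and 1.03, 1.0 and 1.61 FPKM in AngII. Control replicates 2 and 3 were above all AngII libraries, and Control replicate 1 was level with the lower AngII libraries. The limma difference was -0.41 (SE 0.299, 95% interval -1.14 to 0.32), and -0.125 without Control replicate 3. The authors' deposited table gives it p = 0.00865 and q = 0.979.

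Siglech, a sialic acid-binding receptor of plasmacytoid dendritic cells that some macrophages share, was at 2.47, 3.55 and 5.04 FPKM in Control and 2.23, 2.76 and 3.05 FPKM in AngII. The 2 highest libraries were Control, while Control replicate 1 lay among the AngII libraries. Its limma difference was -0.32 (SE 0.218, 95% interval -0.85 to 0.22), and -0.115 without Control replicate 3. These values are those of identifier ENSMUSG00000051504. In the library files the name Siglech stands on another row, whose leading identifier is that of Ufsp1, at 0.974, 0.989 and 1.49 FPKM in Control and 0.822, 1.23 and 1.36 FPKM in AngII. The authors' deposited table gives Siglech p = 0.0513. For the other 8 genes name and identifier were on the same row.

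In order of mean level the 9 genes ran Apol7c, Itgax, Batf3, Siglech, Cd209a, Flt3, Zbtb46, Xcr1 and Clec9a, from 5.54 down to 0.390 FPKM. The ranges of each neighbouring pair overlapped over the 6 libraries. Within libraries, however, Siglech was above Cd209a, Cd209a above Flt3 and Flt3 above Zbtb46 in 6 of 6. Batf3 was above Siglech in 3 of 6, and each of the other neighbouring pairs kept its order in 5 of 6.

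One library stood out for most of the 9 genes. Control replicate 3 was the highest library for 8 of them (Zbtb46 was highest in AngII replicate 2, at 0.797 against 0.791 FPKM), and Control replicate 1 the lowest for 5. Over all genes tested, Control replicate 3 was the highest for 1480 of 11842. Expressed relative to each gene's own mean over the 6 libraries, the median of the 8 genes other than Apol7c was 0.654, 1.02 and 1.54 for the Control libraries and 0.824, 1.0 and 0.968 for the AngII libraries. The corresponding values of Apol7c were 0.897, 1.09 and 1.83 for Control and 0.818, 0.659 and 0.709 for AngII. Apol7c was thus above the median of the other genes in the 3 Control libraries. It was nearly level with it in AngII replicate 1 and below it in AngII replicates 2 and 3. In AngII replicate 1 Flt3 (0.810), Clec9a (0.773), Siglech (0.702) and Cd209a (0.627) lay below Apol7c. In AngII replicate 2 only Cd209a (0.611) did, and in AngII replicate 3 none did. Apol7c was chosen for its difference between the groups, so its place in this comparison partly follows from that choice.

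**Figure D2:**
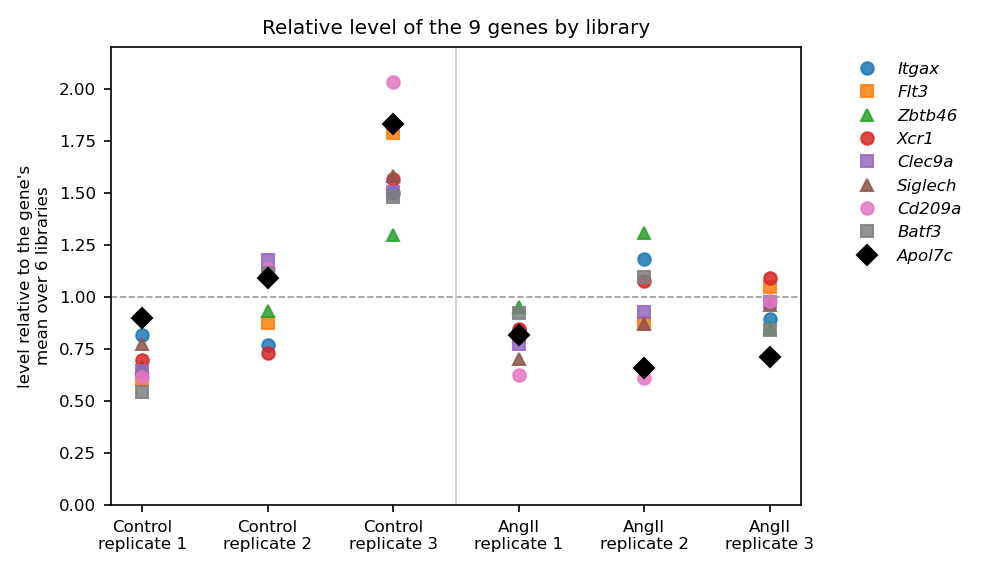
Level of each gene divided by its mean over the 6 libraries (vertical axis, no unit) in each library; black diamonds are Apol7c. In Control replicate 3 all 9 genes lie above 1. In AngII replicates 2 and 3 Apol7c lies at 0.659 and 0.709 while the other genes have medians of 1.0 and 0.968. Cd209a lies below Apol7c in AngII replicate 2 (0.611).

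The ratio of Apol7c to another gene in the same library sets its level against a marker measured in the same RNA. The ratio to Zbtb46 was 12.3, 10.6 and 12.8 in Control and 7.81, 4.58 and 7.60 in AngII, so the groups lay apart, with means of 11.9 ± 1.14 and 6.66 ± 1.81 (SD, n = 3). The ratio to Xcr1 was 14.5, 16.8 and 13.1 in Control and 10.9, 6.89 and 7.31 in AngII. The high value of Apol7c in Control replicate 3 did not stand out in either ratio. The ratios to Itgax (1.74 ± 0.223 against 1.08 ± 0.293), Flt3 (6.64 ± 1.21 against 4.32 ± 0.929) and Batf3 (2.15 ± 0.572 against 1.29 ± 0.257) were also lower in each AngII library than in each Control library, for Flt3 by little (5.37 in the highest AngII library, 5.44 in the lowest Control library). Those to Clec9a (16.7 ± 3.34 against 11.8 ± 2.79), Siglech (1.91 ± 0.181 against 1.55 ± 0.419) and Cd209a (3.74 ± 1.04 against 3.50 ± 0.992) overlapped. Groups were thus apart in 5 of 8 ratios. The ratio of Apol7c to any other tested gene was apart and lower in AngII for 66.8% of 11501 genes, so the share among the 8 markers was near that background. All 8 share Apol7c, which was chosen for its difference, so they are not independent of it or of each other and were not tested.

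**Figure D3:**
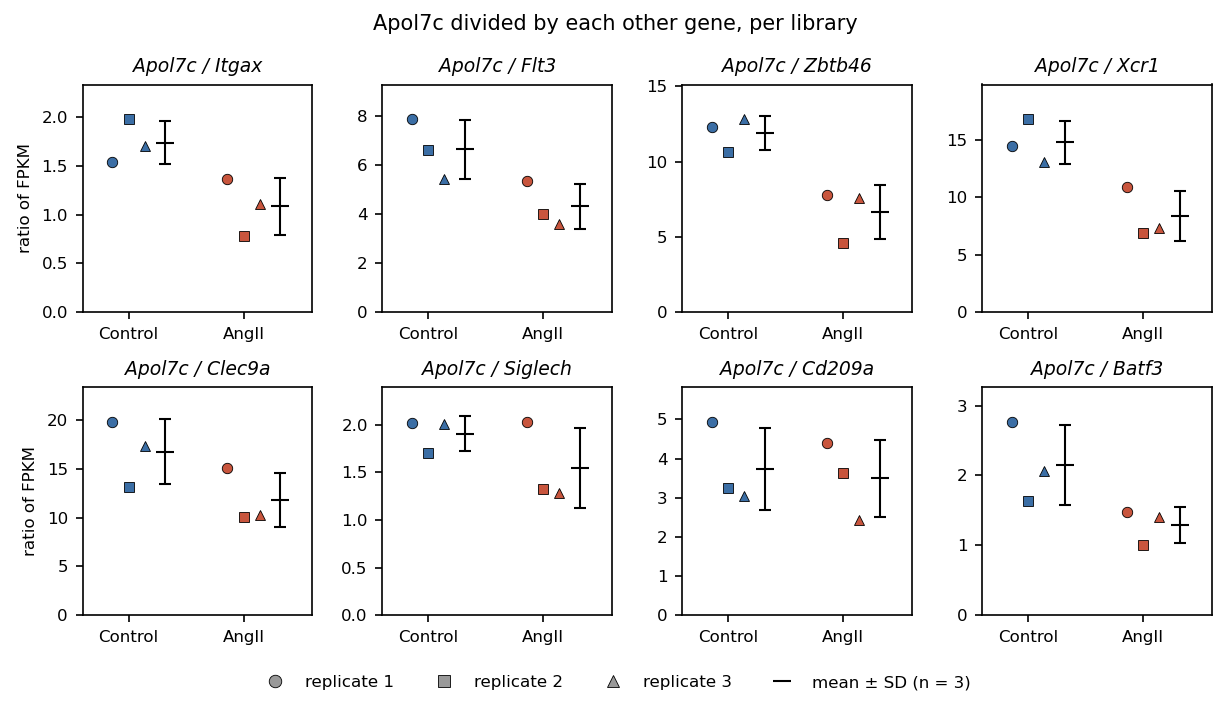
Ratio of the FPKM of Apol7c to that of each other gene (vertical axes, linear from 0) in the Control and AngII libraries. Symbols stand for replicates and the bar for the mean ± SD (n = 3). The ratios to Zbtb46 (10.6 to 12.8 against 4.58 to 7.81) and Xcr1 are apart between the groups, and those to Cd209a, Siglech and Clec9a overlap.

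The relatives of Apol7c gave smaller differences, in both directions. In the annotation 12 of the 13 APOL genes listed lie on chromosome 15 and Apol7d on chromosome 1, and 4 of the 13 reached a mean of 1 FPKM. Apol7e was the most abundant, at 14.4, 14.5 and 12.9 FPKM in Control and 14.2, 10.9 and 14.6 FPKM in AngII. Apol7b was at 3.18, 2.34 and 2.53 FPKM in Control and 3.62, 2.64 and 2.67 FPKM in AngII. Both had overlapping groups, with limma differences of 0.11 for Apol7b (SE 0.145) and -0.08 for Apol7e (SE 0.118). Apol9b, an interferon-inducible member, was at 1.19, 1.12 and 1.34 FPKM in Control and 0.948, 0.700 and 1.04 FPKM in AngII, apart but close (difference -0.23, SE 0.139). Its mean was 1.22 FPKM in Control and 0.897 FPKM in AngII, so it passed the filter only through its Control values. Groups were thus apart with AngII lower in 2 of the 4, where the share over all genes tested was 3.48%. One of these is Apol7c, which was chosen for its difference, so the count supports nothing further. In limma 0 of the 4 passed (adjusted p = 0.9999 for each), and 1 of 4, Apol7c, had an unadjusted p under 0.05.

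The remaining family genes were low. Apol10b lay between 0.646 and 1.02 FPKM, Apol9a between 0.213 and 0.432, Apol11b between 0.0417 and 0.530 and Apol8 between 0.0639 and 0.299. Apol7d, Apol6 and Apol10a were at 0 in at least 3 libraries and did not exceed 0.237 FPKM, and Apol7a and Apol11a were listed at 0 in all 6 libraries. Near-identical copies can share reads. Of all stretches of 50 bases in the longest GENCODE transcript of each gene, 26.2% of those of Apol7c also occur in a transcript of another gene, chiefly the predicted gene Gm8221 (327 of 2011 stretches) and Apol7a (215), and 87 occur in Apol7e. For Apol7b and Apol7e the shares were 75.6% and 76.0%, mostly with each other, so the split of reads between those 2 is uncertain, and 51.4% of the stretches of Apol9b occur in Apol9a.

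**Figure D4:**
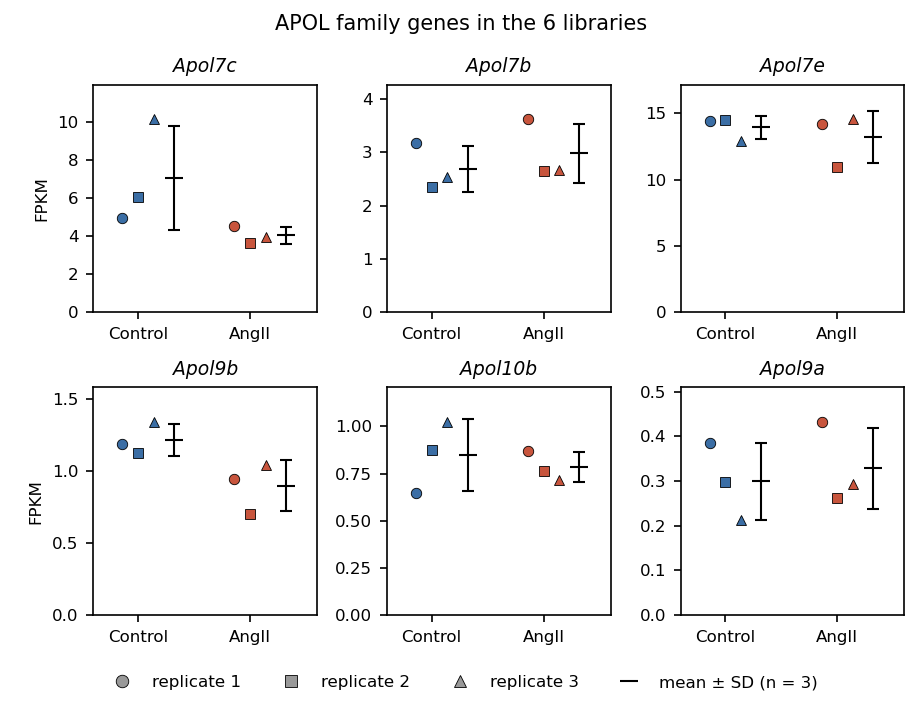
FPKM (vertical axes, linear from 0) of the 6 most abundant APOL family genes in the Control and AngII libraries. Symbols stand for replicates and the bar for the mean ± SD (n = 3). Apol7c (4.97 to 10.1 against 3.65 to 4.53 FPKM) and Apol9b (1.12 to 1.34 against 0.700 to 1.04 FPKM) have groups that do not overlap, and the other 4 overlap. Over all genes tested, 3.48% had groups apart with AngII lower, and Apol7c was chosen for its difference.

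Wider lists of dendritic cell genes, 59 genes in all of which 47 were tested, held 0 genes past the limma threshold in either direction (adjusted p = 0.9999 for those named below), and 1, Ccr7, had an unadjusted p under 0.05. Of the 47, 27 had lower values in AngII, with a median log2 difference of -0.03, against 52.0% of all genes tested and a median of -0.004. Control replicate 3 was the highest library for 31 of the 47, against 1480 of all 11842 genes tested. Klf4, a transcription factor of the conventional type 2 list that T cells and monocytes also express, is significant in the authors' deposited table with the same q as Apol7c (0.0216). Its groups overlapped (10.4 to 22.5 FPKM in Control, 6.48 to 18.8 FPKM in AngII), and it did not pass limma (difference -0.72, SE 0.448). By list, the median log2 difference was 0.00 for conventional type 1 genes (8 tested, 4 lower), -0.12 for conventional type 2 genes (8 tested, 5 lower), -0.05 for plasmacytoid genes (12 tested, 7 lower), 0.01 for shared genes (9 tested, 4 lower) and -0.12 for genes of mature or migratory cells (10 tested, 7 lower). With 1 library left out, the median of each of the 5 lists took both signs. The list genes need not come from dendritic cells. Ly6d (37.3 and 36.9 FPKM) and Spib (14.2 and 12.0 FPKM) were highest in replicate 3 of both groups, as the B cell markers below were. Sirpa, Clec12a, Plbd1 and Cd86 were highest in AngII replicate 2, as the macrophage markers below were. The cells these transcripts came from were not tested. Of the 47 tested genes, 4 had groups that did not overlap with AngII lower (3 of 10 in the mature list and 1 of 12 in the plasmacytoid list) and 0 with AngII higher, where the shares over all genes tested were 3.48% and 2.36%. Among the genes under the filter, Clec10a and Ccl17 were also apart with AngII lower, and Ido1 with AngII higher. Ido1 was at 0 in the Control libraries and at most 0.0540 FPKM in AngII. An estimated 0 to 3 fragments per library stood behind Ido1, 1 to 6 behind Ccl17 and 23 to 57 behind Clec10a. The shares above cover tested genes only, and none was taken over the genes under the filter.

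Among the mature cell genes, the chemokine receptor Ccr7, which guides dendritic cells and naive T cells to lymphoid tissue, had means of 342.7 ± 26.3 (Control) and 284.8 ± 24.6 FPKM (AngII; SD, n = 3), a limma difference of -0.27 (SE 0.0904, unadjusted p = 0.0254). Its level is far above those of the 9 genes, and T cells express it themselves. Relb, an NF-kappaB subunit that dendritic cells need to mature and that T cells also express, was at 29.8 ± 2.27 and 26.4 ± 0.420 FPKM. Fscn1, an actin-bundling protein of mature dendritic cells, was at 7.92, 8.46 and 13.9 FPKM in Control and 7.36, 7.82 and 6.19 FPKM in AngII, and its Control replicate 3 stood out as for Apol7c. Irf7, an interferon regulatory factor of the plasmacytoid list, was at 34.8 ± 0.458 and 33.0 ± 0.963 FPKM, also above the levels of the 9 genes. Fscn1, Klf4, Clec10a, Ccl17, Ido1 and, below, Itgae were named after their values were seen. Limma was passed by none of Ccr7, Relb, Fscn1 and Irf7.

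The 5 genes with the pattern most like that of Apol7c over the 6 libraries were in none of the dendritic cell lists. By Pearson correlation of log2(FPKM + 1) among 10240 protein-coding genes they were Pak4 (r = 0.976), a kinase of the actin cytoskeleton, Trappc4 (0.963), a vesicle-tethering subunit, Mrps21 (0.960), a mitochondrial ribosomal protein, Them4 (0.957), a thioesterase, and Ube2f (0.956), an enzyme of the NEDD8 pathway. Their own range was small, 3.20 to 3.93 FPKM for Pak4 against 3.65 to 10.1 for Apol7c. Of the dendritic cell lists, Fscn1 (0.930) and Itgae (0.921), an integrin of type 1 cells that some T cells share, came close to these. Among the other 8 genes r with Apol7c ran from 0.315 (Zbtb46) to 0.875 (Cd209a). The genes with the highest mean correlation to those 8 were Efhd2 (0.892), Rnf181 (0.889), the chemokine genes Ccl4 (0.887) and Ccl3 (0.885), and Prr13 (0.881). Ccl4 was at 6.25, 11.2 and 28.1 FPKM in Control and 7.30, 10.9 and 10.8 FPKM in AngII, with Control replicate 3 again highest. These correlations were picked as the highest of many over 6 points and describe these libraries.

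Markers of other cells moved between the libraries as well. The 10 shared dendritic cell genes, most of whose sum is MHC class II and invariant chain transcripts that B cells and macrophages also make, summed to 706, 699.9 and 1807 FPKM in Control and 885, 913 and 1203 FPKM in AngII. The 8 B cell markers summed to 38.4, 53.8 and 118 FPKM in Control and 36.1, 40.6 and 115 FPKM in AngII. They were high in replicate 3 of both groups. The 10 macrophage markers summed to 1151, 1603 and 1965 FPKM in Control and 1468, 2801 and 1421 FPKM in AngII, with AngII replicate 2 highest. The 5 platelet markers were at 77.7, 92.7 and 245 FPKM in Control and 154 to 205 in AngII. The 8 neutrophil markers were at 8.19, 8.07 and 42.1 FPKM in Control and 24.0, 75.5 and 73.7 FPKM in AngII. The 6 NK cell markers were at 73.7, 103.8 and 120.5 FPKM in Control and 79.6, 71.2 and 96.3 FPKM in AngII. The 5 plasma cell markers were at 143.9 to 248 and 118 to 228 FPKM, the 6 monocyte markers at 202 to 399 and 230 to 443, and Cd8a with Cd8b1 at 10.7 to 11.7 and 9.73 to 13.7 FPKM. Of single markers, means in Control and AngII were 243 and 218 FPKM for Cd3d, 47.1 and 43.9 for Adgre1, 58.9 and 52.4 for Ly6c2, 4.71 and 17.1 for S100a8, 5.38 and 3.90 for Ncr1, 0.855 and 0.873 for Cd8a, 45.8 and 55.7 for Pf4 and 117.5 and 106.5 for Jchain. No gene of these lists was at 0 in all 6 libraries. Their part in the differences between libraries was not tested.

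**Figure D5:**
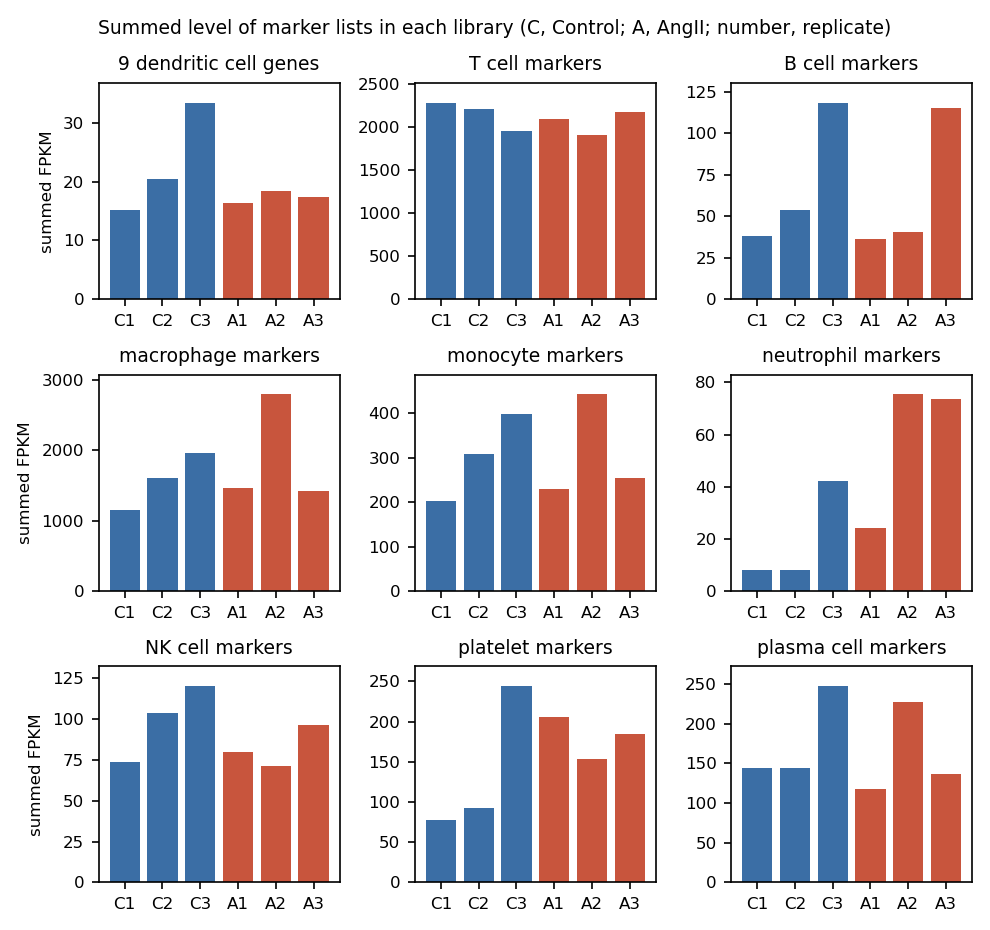
Summed FPKM (vertical axes, linear from 0) of the 9 genes and of marker lists of other cells in each library; C and A stand for Control and AngII with the replicate number, blue for Control and red for AngII. Control replicate 3 is highest for the 9 genes (33.4 FPKM), and it is also highest for B cell, NK cell, platelet and plasma cell markers. The B cell sum is nearly as high in AngII replicate 3 (115.3 against 118.5 FPKM).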

How the data were processed

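Per the labels' protocols, CD4+ T cells were isolated with a kit, and libraries of the extracted RNA followed a TruSeq protocol. Per the submitters' processing notes, the tools were Trimmomatic 0.32, TopHat2 2.1.1 and Cuffdiff on GRCm38.p3, without settings. Each library has a file of FPKM made by the authors (39171 rows), and a further deposited table holds the p-values and q-values of their own comparison. The conditions of that table are only numbered, so no direction was taken from it.

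Rows were taken by their first identifier, with GENCODE M21 symbols and positions; in 104 rows a second identifier differs. Log2(FPKM + 1) was fitted for genes whose mean reached 1 FPKM with limma 3.58.1 in R 4.3.3 (trend, two-sided, Benjamini-Hochberg threshold 0.05); a change on this scale understates that of low genes. The code was tested on simulated data. Depth came from the FPKM of single fragments, and fragments per gene from the longest transcript; both are approximate. P-values measure only the spread between these libraries. Further tools were Python 3.11.15, pandas 2.3.3 and matplotlib 3.10.9.

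The members, lists and tests were chosen with earlier results of these data known. Besides the members, genes were named by rule: APOL genes, the 2 genes of smallest p with groups apart in each dendritic cell list, the 5 most alike in pattern, and Cd4, Cd3e and the first marker of each other cell list, of which 1 is not reported here. The alternatives tried stand in the closing section.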

Additional observations from a re-analysis of the deposited data

How the results depend on the processing

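With another pseudocount (0.1 or 5), another filter, median-of-ratios or quantile scaling, the replicate block, or any 1 library left out, 0 of those of the 9 genes that were tested (all 9 with no filter, 1 at a mean of 5 FPKM, 5 without Control replicate 3 and otherwise 6) and 0 genes of the wider dendritic cell lists passed limma. The count over all genes was 4. It was 5 with a pseudocount of 0.1, 3 with the replicate block and 7 with no filter on low values. With 1 library left out it was 4 to 9 (leaving out Control replicate 1 gave 8, Control replicate 3 gave 7 and AngII replicate 3 gave 9). The log2 difference of Apol7c ran from -0.817 (without Control replicate 1) to -0.367 (without Control replicate 3) and stayed negative in all 13 alternatives. Apol7c was chosen for its difference, and its AngII libraries all lay below its Control libraries. Another pseudocount or filter, or 1 library left out, could therefore not turn its sign, which adds nothing. The log2 differences of Itgax (-0.172 to 0.217) and Batf3 (-0.345 to 0.196) changed sign with 1 library left out. Those of Siglech (-0.515 to -0.115), Cd209a (-0.681 to -0.125) and Flt3 (-0.265 to -0.052, under the filter without Control replicate 3) did not. With 1 library left out the list medians ran from -0.127 to 0.167 (type 1), -0.213 to 0.037 (type 2), -0.118 to 0.124 (plasmacytoid), -0.201 to 0.418 (shared) and -0.205 to 0.036 (mature). Replicate numbers are shared by the groups. Deviations of same-numbered libraries had correlations of -0.08, -0.02 and -0.04, which cannot settle whether same-numbered mice were handled together. With the replicate block 3 genes passed, with Apol7c at -0.63 and 0 of the 6 tested members under an unadjusted p of 0.05. The low estimated fragment numbers of Clec9a and Xcr1 limit what can be detected for them.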

Other observations

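The displaced name of Siglech was part of a wider shift in the library files, where the second identifier differs from the first in 104 rows. Cd14, a monocyte receptor, stands by name on a row that is 0 in all 6 libraries, while its identifier was at 10.5, 29.5 and 21.7 FPKM in Control and 15.9, 23.2 and 15.8 FPKM in AngII. Wdfy4, a gene that type 1 dendritic cells need for cross-presentation, stands by name on a row that reaches only 0.0107 FPKM, while its identifier was at 7.69, 6.57 and 9.46 FPKM in Control and 7.67, 9.31 and 9.70 FPKM in AngII.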
